A study of Rattus norvegicus with 4 samples.

Results

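The mitochondrial ribosomal protein genes were followed in the rat carotid body (CB), the oxygen sensor at the fork of the carotid artery, in neonates (day 5) and adults (day 21). Members were chosen by symbol alone, as Mrpl or Mrps followed by a number and at most 1 letter. This gave 76 of the 32883 rows of the deposited table, with 75 different symbols. Of these, 73 rows encode proteins assigned to the mitochondrial ribosome, 47 in its large and 26 in its small subunit. By current assignment Mrps18a and Mrps30 sit in the large subunit despite their names. Mrps36 is now assigned to the 2-oxoglutarate dehydrogenase complex, and the other 2 rows are entries named Mrps21l. Mrpl9, Mrpl11, Mrpl24 and Mrpl30 were not analysed here.

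RNA-seq was performed on whole CBs of Sprague Dawley rats with no treatment, in 2 libraries per age and 4 in all. Both sexes were included and were not separated. By the deposited description each library pooled the CBs of 6 pups or 3 adult rats, whereas the study's methods give other pool sizes and more replicates, so the number of animals behind a library is uncertain. The labels call the samples biological replicates. Total estimated counts were 39476110 and 38506468 in the neonatal and 37778975 and 36286191 in the adult libraries. At this depth 3 counts, the limit that a count of 0 allows, correspond to 0.0845 and 0.0835 CPM in the neonatal and 0.0736 and 0.0756 CPM in the adult libraries, for counting error only. CPM are counts scaled to a common library total, with TMM factors.

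Mitochondrial ribosomes translate the few proteins that mitochondrial DNA (mtDNA) still encodes, all of them parts of the respiratory chain and the ATP synthase. Their own proteins are all encoded in the nucleus, made on cytosolic ribosomes and imported, and then assembled on mtDNA-encoded ribosomal RNAs. The small subunit binds the mRNA and decodes it, and the large subunit joins the amino acids and faces the inner membrane, into which the products are inserted. Some of these proteins descend from bacterial ribosomal proteins, and others are found only in mitochondria. In the CB, mitochondrial respiration is of interest because glomus cells, the chemoreceptor cells, depend on it to sense oxygen.

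Because these genes are scattered over the genome, their promoters were compared first for letters that they share. RefSeq promoters of assembly GRCr8, from 250 bases before to 50 after the start, were found for 60 members. These were searched on both strands for CCGGAAG, the core bound by ETS factors such as GABP, for GCGCA, any base and GCGC in a row, bound by NRF1, and for AA, any base, ATG and GCGGC in a row, bound by YY1. None of the 3 motifs contains another. The ETS letters stood in 33.3% of the 60 member promoters and in 10.7% of the 21842 promoters of protein-coding genes. The NRF1 letters stood in 13.3% and 5.66%, and the YY1 letters in 16.7% and 1.43%. Among 58 promoters of cytosolic ribosomal proteins the shares were 32.8%, 10.3% and 1.72%. The differences between these sets were not tested. Median GC content was 55.8% in the member promoters and 55.0% in those of all protein-coding genes.

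The promoters of 4 members are printed to show these letters at both ends of the change with age described below. Mrpl58 and Mrps26 were among the 10 members with the largest log2 fold change, and Mrpl17 and Mrpl51 among the 6 with the smallest. Capitals mark a motif match, and each sequence is written in the direction of its gene.
Mrpl58, chr10:101145092-101145391 (GRCr8, + strand): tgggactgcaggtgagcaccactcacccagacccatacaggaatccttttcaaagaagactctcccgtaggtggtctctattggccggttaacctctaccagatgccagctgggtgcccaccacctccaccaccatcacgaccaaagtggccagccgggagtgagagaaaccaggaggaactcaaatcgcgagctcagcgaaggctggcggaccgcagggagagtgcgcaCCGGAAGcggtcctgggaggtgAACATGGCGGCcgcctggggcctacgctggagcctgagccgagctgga
Mrps26, chr3:138222074-138222373 (GRCr8, + strand): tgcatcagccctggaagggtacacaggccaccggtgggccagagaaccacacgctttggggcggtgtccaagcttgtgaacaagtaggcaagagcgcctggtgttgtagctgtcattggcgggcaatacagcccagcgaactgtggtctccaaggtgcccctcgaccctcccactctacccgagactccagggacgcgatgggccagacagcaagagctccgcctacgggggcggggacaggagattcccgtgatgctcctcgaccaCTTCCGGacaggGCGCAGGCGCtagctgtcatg
Mrpl17, chr1:169575650-169575949 (GRCr8, - strand): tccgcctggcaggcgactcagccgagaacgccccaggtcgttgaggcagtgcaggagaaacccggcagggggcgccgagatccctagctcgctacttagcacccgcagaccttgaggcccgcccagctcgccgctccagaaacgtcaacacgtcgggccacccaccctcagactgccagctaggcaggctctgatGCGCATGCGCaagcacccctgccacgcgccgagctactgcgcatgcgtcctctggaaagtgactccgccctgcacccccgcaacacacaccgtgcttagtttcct
Mrpl51, chr4:159677738-159678037 (GRCr8, + strand): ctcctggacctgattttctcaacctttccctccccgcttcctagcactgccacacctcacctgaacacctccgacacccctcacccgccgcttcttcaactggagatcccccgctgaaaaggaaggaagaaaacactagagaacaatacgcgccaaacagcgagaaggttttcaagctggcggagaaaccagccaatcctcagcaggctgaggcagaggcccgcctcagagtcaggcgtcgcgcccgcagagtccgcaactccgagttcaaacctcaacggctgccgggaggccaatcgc
The Mrpl58 promoter held CCGGAAG 20 bases before the start and AACATGGCGGC from just after it. In Mrps26 the ETS letters lay on the opposite strand, as CTTCCGG, followed by GCGCAGGCGC. In Mrpl17 the single match, GCGCATGCGC, reads the same on both strands. No match was found in the Mrpl51 window, which says only that these letters are not in it. Of the 60 promoters, 29 held none of the 3 motifs, 24 held 1 and 7 held 2.

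To ask how expression of these genes differed between neonates and adults, all genes that reached 1 CPM in 2 or more libraries were tested with edgeR. Of the 76 rows, 71 passed this filter and 5 did not. Of the 71 tested members, 52 were higher in neonates at a Benjamini-Hochberg adjusted p under 0.05, that is 73.2%. Of all 13838 genes tested, 31.2% were higher by the same rule. Only Mrpl51 was lower, 1 of 71, against 31.1% of all genes, and 18 members passed in neither direction. The changes were small. The median was 0.49 on the log2 scale, a 1.41-fold higher level in neonates, beside 0.00 over all genes tested, and members ran from -0.47 to 1.04. A single member, Mrpl58, passed the study's 2-fold limit, where 7.68% of all genes did so in this direction. In 61 of the 71 members both neonatal libraries lay above both adult ones, that is 85.9%, against 41.3% of all genes tested, and in 3 both lay below, against 41.7%.

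These calls rest on 2 pools per age, for which an exact two-sided permutation test of a single gene cannot go below 0.333. They also depend on TMM scaling, since with library size alone 33 members were higher (46.5%) and 6 were lower (8.45%), in place of 52 and 1. Of all genes 18.7% were then higher and 43.3% lower, and the member median relative to all genes was 0.50, as with TMM. In whole tissue, fewer cells of a type and less RNA per cell cannot be told apart.

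**Figure D1:**
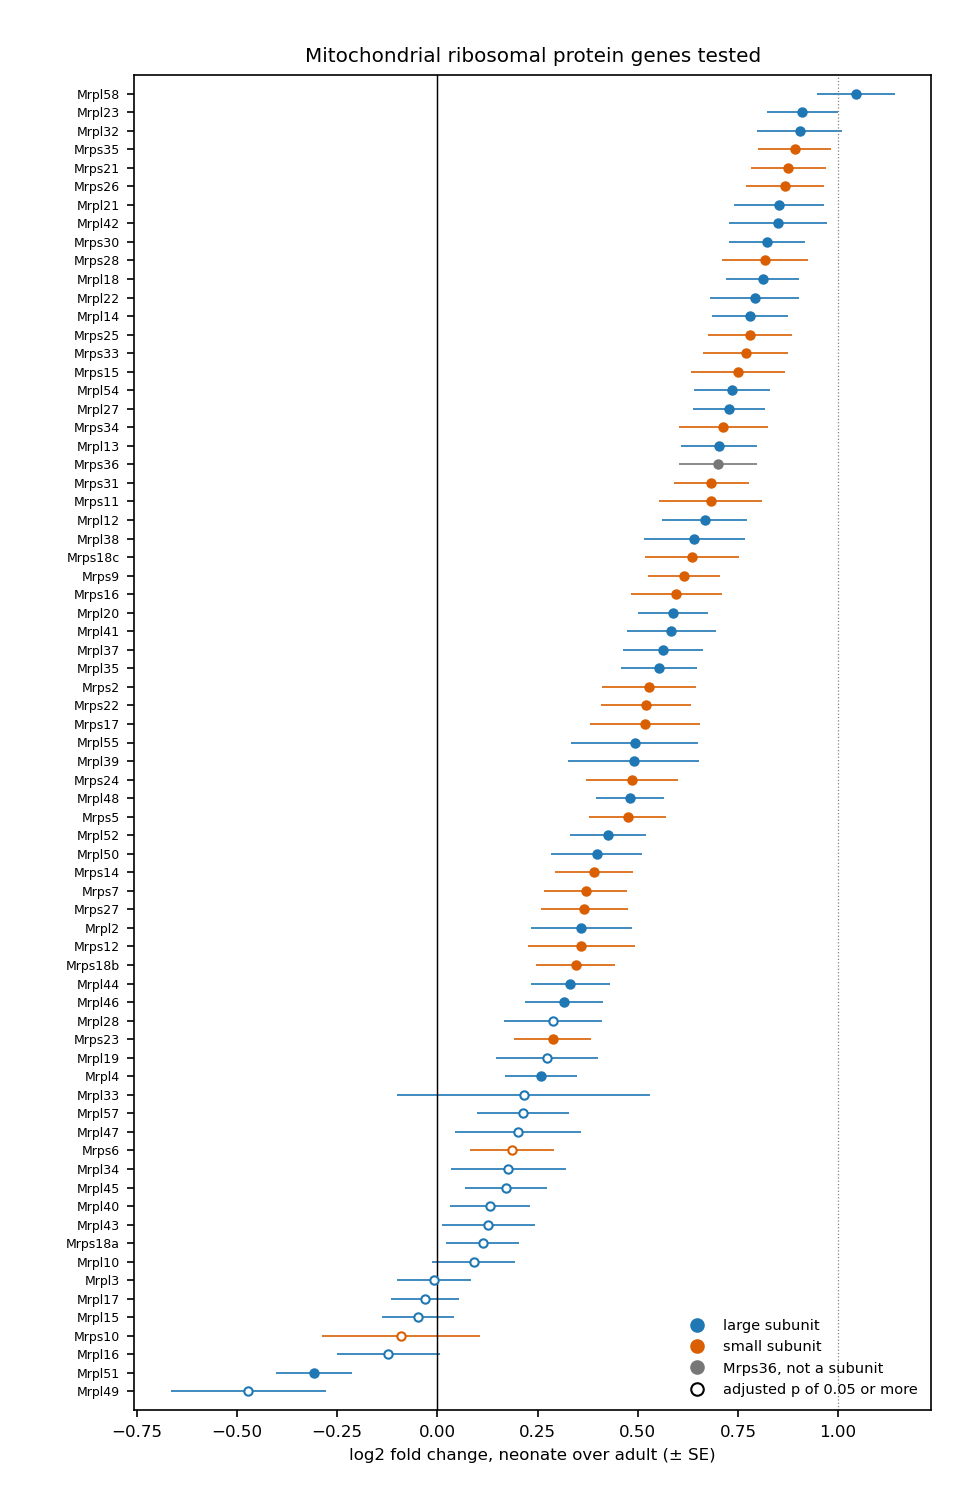
Each point is a mitochondrial ribosomal protein gene, coloured by subunit. The x axis shows its log2 fold change (neonate over adult) with a standard error derived from the edgeR F statistic. Filled points passed an adjusted p under 0.05 and the dotted line marks 2-fold. Most points lie right of 0, from -0.47 for Mrpl49 to 1.04 for Mrpl58.

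The small subunit showed the more uniform difference. Of its 26 tested genes 24 were higher in neonates, none was lower, and Mrps6 and Mrps10 passed in neither direction. Here and for the counts below, 31.2% of all genes were higher and 31.1% lower. In the large subunit 27 of 44 tested genes were higher, 1 was lower and 16 passed in neither direction. The median log2 fold change was 0.56 in the small and 0.41 in the large subunit. The difference between the subunits was not tested. Split by origin, 14 of the 24 tested large-subunit genes with bacterial counterparts were higher, and 13 of the 20 that the current nomenclature lists as mitochondrial. The latter include Mrps18a, and in the small subunit Mrps18b, although both are related to a bacterial protein. In the small subunit these counts were 14 of 16 and 10 of 10. Across both subunits 28 of 40 genes listed with bacterial counterparts and 23 of 30 listed as mitochondrial were higher. Thus most members of both kinds were higher.

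Summed over the 73 mitoribosomal rows, the level was 2744 and 2569 CPM in the neonatal libraries and 1938 and 1848 CPM in the adult libraries, 1.40-fold higher in neonates. The sum of each neonatal library was thus above that of each adult library. Before TMM scaling their share of all counts was 0.247% and 0.240% at day 5 and 0.209% and 0.202% at day 21. Counts of large over small subunit genes stood at a ratio of 1.54 and 1.62 in neonates and of 1.73 and 1.75 in adults, so the balance leaned slightly to the small subunit in neonates. Such ratios are of CPM sums, not corrected for gene length, and are read only between ages. Library 1 of each age read somewhat higher than library 2. In 52 of the 70 tested mitoribosomal genes neonate replicate 1 was above replicate 2, and the same number, 52, was found in adults. The typical gap between replicates was 0.11 on the log2 scale in neonates and 0.09 in adults (median absolute difference), against 0.49 between the ages.

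**Figure D2:**
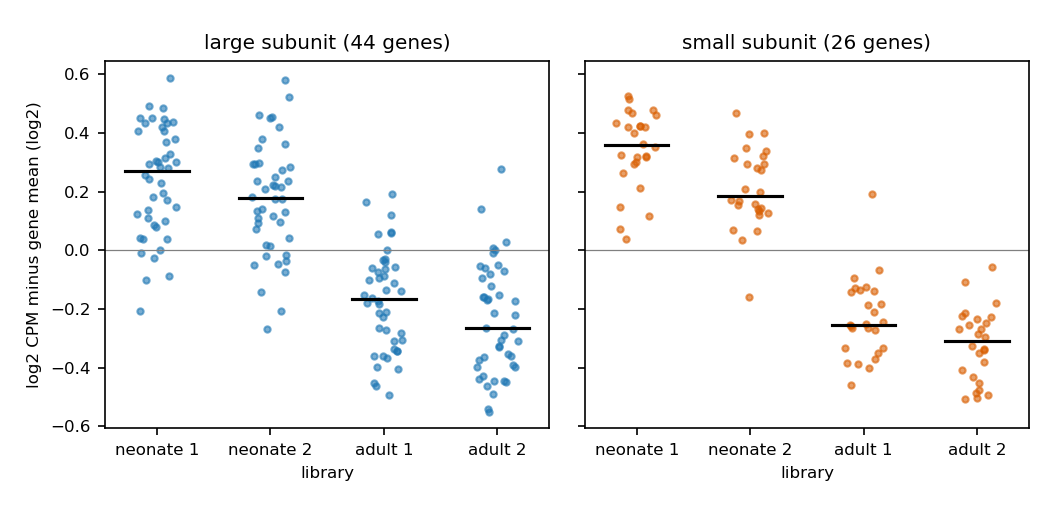
For each library, points show the log2 CPM of each mitoribosomal gene minus its mean over the 4 libraries, and bars the median over genes, with the large subunit (44 genes) at left and the small subunit (26 genes) at right. Both neonatal libraries sit above both adult libraries, and library 1 sits slightly above library 2 at each age.

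Mrpl58 (ICT1), a large-subunit protein that has kept peptide release activity and can free stalled chains, showed the largest difference of all members. It was at 44.9 and 40.9 CPM in neonates and at 21.2 and 20.4 CPM in adults. The groups were well apart, and the log2 fold change was 1.04 ± 0.10 (SE, edgeR adjusted p = 3.52e-05). Next in the large subunit came Mrpl23, a protein at the exit of the nascent chain tunnel, with 52.8 and 53.4 CPM in neonates against 28.1 and 28.4 CPM in adults. Its replicates were almost equal at each age, and it was higher in neonates by 0.91 ± 0.09 (SE, edgeR adjusted p = 4.12e-05). Maturation of Mrpl32 by the m-AAA protease is a known step of large-subunit assembly. Mrpl32 had 33.2 and 31.7 CPM in neonates and 18.4 and 16.3 CPM in adults (log2 fold change 0.90). Mrpl21, with a bacterial counterpart, had 29.4 and 33.7 CPM in neonates and 18.3 and 16.7 CPM in adults (0.85). For Mrpl42, known only from mitochondria, the neonatal libraries differed more, at 31.1 and 38.98 CPM, but both were above the 19.8 and 19.1 CPM of adults (0.85). Mrps30, a large-subunit protein without a bacterial counterpart, had 43.8 and 46.4 CPM in neonates and 26.4 and 24.6 CPM in adults (0.82). In all of these the neonatal libraries stood above the adult ones.

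The leading small-subunit genes differed by about as much. Mrps35, known only from mitochondria, was at 42.0 and 43.3 CPM in neonates and at 22.8 and 23.2 CPM in adults, with a difference on the log2 scale of 0.89 ± 0.09 (SE, edgeR adjusted p = 5.40e-05). Mrps21, the counterpart of bacterial S21, was at 61.9 and 58.5 CPM against 34.0 and 31.6 CPM (0.88). Neither gene had overlapping groups. Mrps26, a mitochondria-specific protein, was the least even of these in neonates, at 74.9 and 66.9 CPM, and was at 40.1 and 37.7 CPM in adults (0.87). Mrps28, related to bacterial S1, was at 30.1 and 29.7 CPM in neonates and at 17.9 and 16.1 CPM in adults (0.82). Both were higher in neonates, with no overlap between ages.

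Among genes that mark a function of the ribosome, the stalk was uneven. Mrpl12, the stalk protein that engages translation factors, had 62.2 and 52.6 CPM in neonates and 36.7 and 35.6 CPM in adults (log2 fold change 0.67, edgeR adjusted p = 0.000598). Mrpl10, which anchors it, had 43.2 and 41.4 CPM in neonates and 42.7 and 36.7 CPM in adults. The groups of Mrpl10 overlapped, and its log2 fold change of 0.09 did not pass (edgeR adjusted p = 0.463). Mrps12, of the decoding centre, had 15.9 and 16.6 CPM against 13.1 and 12.2 CPM (0.36, edgeR adjusted p = 0.0416), a call that was lost under several settings. Mrpl45, which lies at the inner membrane near the tunnel exit, did not pass (0.17, edgeR adjusted p = 0.171).

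Mrps18a, Mrps18b and Mrps18c are paralogs of a single bacterial protein, of which the first is placed in the large subunit. They differed in their values. Mrps18c was at 23.2 and 22.1 CPM in neonates and at 15.2 and 13.96 CPM in adults (log2 fold change 0.63, edgeR adjusted p = 0.00142). Mrps18b was at 39.1 and 37.03 CPM against 31.6 and 28.3 CPM (0.35, edgeR adjusted p = 0.0135). Mrps18a was at 31.9 and 32.7 CPM against 29.8 and 30.05 CPM and did not pass (0.11, edgeR adjusted p = 0.302). In each of the 3 both neonatal libraries were above both adult ones, and whether their changes differed was not tested. Mrps18b, like Mrpl41 and Mrps14 among the tested members, had fractional counts, which arise where reads fit more than 1 copy. Its level may therefore be uncertain, although its counts lay close to whole numbers in every library.

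At the other end stood 7 tested members with a log2 fold change below 0. Mrpl51, a large-subunit protein known only from mitochondria, was at 27.9 and 26.0 CPM in neonates and at 33.6 and 33.0 CPM in adults. It was lower in neonates by 0.31 ± 0.09 on the log2 scale (SE, edgeR adjusted p = 0.0192). The call was lost without neonate replicate 2 or without either adult replicate, where the estimates were -0.25, -0.30 and -0.32. Mrpl49 had the lowest estimate, at 6.59 and 6.32 CPM against 8.69 and 9.23 CPM, with a log2 fold change of -0.47 ± 0.19 that did not pass (edgeR adjusted p = 0.0586). Both genes had their neonatal libraries below their adult ones. Mrpl16, another core large-subunit protein, was at 14.7 and 15.3 CPM in neonates and at 17.0 and 15.7 CPM in adults (-0.12, edgeR adjusted p = 0.426). In Mrps10, at 9.63 and 8.21 CPM against 10.5 and 8.52 CPM, the spread within each age was larger than the difference between them (-0.09). Mrpl15 had 36.8 and 35.6 CPM against 38.3 and 36.6 CPM (-0.05), and Mrpl17 had 78.0 and 71.9 CPM against 75.8 and 77.3 CPM (-0.03). None of these 4 passed the test. The groups overlapped in all of them but Mrpl16, whose gap was smaller than the spread between its adult libraries. The remaining one, Mrpl3, was at -0.01.

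The 5 rows that were not tested did not reach the filter of 1 CPM in 2 or more libraries. Mrpl53 had a count of 0 in all 4 libraries. Mrpl36 had a count of 0 in 3 libraries and 0.463 CPM in adult replicate 2. Mrpl1 had 0.372 and 0.343 CPM in neonates and 0.956 and 0.456 CPM in adults, from fractional counts. Each of the 2 rows named Mrps21l had 1 count in 1 library. Whether reads of these genes were assigned to other entries of the annotation was not tested.

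Subunits that do not carry the Mrp name were higher too. All 5 listed passed as higher in neonates, where 31.2% of all genes did, namely the GTP-binding small-subunit protein Dap3 (log2 fold change 0.80), Chchd1 (0.80), Aurkaip1 (0.40) and Ptcd3 (0.32) of the small subunit, and Gadd45gip1 (0.47) of the large subunit. Mrps36, which shares only the name, had 33.1 and 32.2 CPM in neonates and 20.7 and 19.5 CPM in adults, and was higher as well (0.70, edgeR adjusted p = 0.000283).

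Cytosolic ribosomal proteins differed by more. Of 72 tested genes 70 were higher in neonates (97.2%, against 31.2% of all genes). By at least 2-fold 22 were higher, against 7.68% of all genes. The cytosolic median log2 fold change was 0.86, beside 0.49 for the mitochondrial family. The difference between the families was not tested, and 62 of the 73 cytosolic symbols had fractional counts in this table, so single values are uncertain. Among the genes that were higher, Rps20 (1.43) and Rplp2 (1.36) had the largest log2 fold changes, and Rplp0 (0.29) and Rpl8 (0.34) the smallest. Rpl38 had an estimate of 2.19 that did not pass (edgeR adjusted p = 0.0756). Rps6 was the only one lower (edgeR adjusted p = 0.000681), a call lost with DESeq2 at a similar estimate (-4.59, adjusted p = 0.169). It was at 2.91 and 0 CPM in neonates and 41.9 and 28.1 CPM in adults, also from fractional counts. Its fitted log2 fold change was -4.60 with all libraries, -3.58 without neonate replicate 2 and -13.4 without neonate replicate 1. The last is set against a library at 0, so the size is uncertain. Rpl35a had no counts. The cytosolic sum was 17.5 and 18.9 times the mitoribosomal sum in neonates and 14.9 times in each adult library. Hence both families were higher in neonates, and the ratio between them was higher there too.

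**Figure D3:**
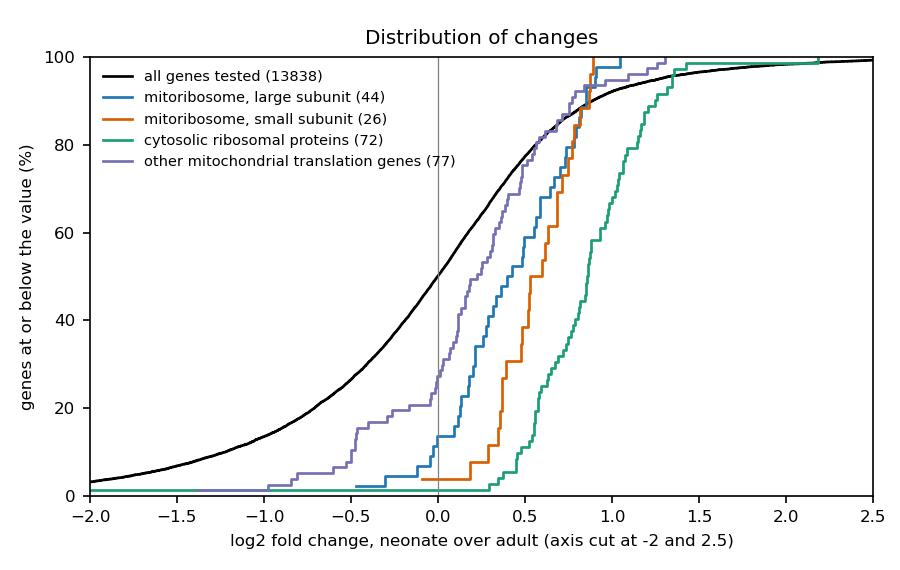
Cumulative share of genes (y axis, %) at or below each log2 fold change (x axis, neonate over adult) for all genes tested, both mitoribosomal subunits, cytosolic ribosomal proteins and the other genes of mitochondrial translation, with those of mtDNA copying and transcription. Medians lie at 0.00 for all genes, 0.23 for the other translation genes, 0.41 for the large subunit, 0.56 for the small subunit and 0.86 for the cytosolic proteins.

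The mRNAs that mitochondrial ribosomes translate were also higher. All 13 mtDNA-encoded protein genes passed, with a median log2 fold change of 1.17. Their sum was 207739 and 167201 CPM in neonates and 84022 and 83005 CPM in adults, 2.24-fold higher in neonates. Divided by the mitoribosomal sum this gave a ratio of 75.7 and 65.1 in neonates and 43.4 and 44.9 in adults. Mitochondrial transcripts are only partly captured by poly A+ selection, so these sums do not measure all of them.

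The other genes that serve mitochondrial translation, including those that copy and transcribe mtDNA, passed in both directions. Of 77 tested genes 33 were higher (42.9%, against 31.2% of all genes), 9 were lower (11.7%, against 31.1%) and 35 passed in neither direction, with a median log2 fold change of 0.23. With library size alone 17 were higher (22.1%) and 14 lower (18.2%), against 18.7% and 43.3% of all genes. Of 14 genes listed as translation factors 8 were higher and 3 lower. The list also holds Oxa1l (0.40, higher) and Letm1 (lower), which are not translation factors themselves. The initiation factor Mtif2 (1.09), the formyltransferase Mtfmt that makes the initiator tRNA (0.79) and the release factor Mtrf1l (0.75) led the first group. The inner membrane protein Letm1 (-0.98), the recycling factor Mrrf (-0.81) and the initiation factor Mtif3 (-0.50) were lower in neonates. The initiation factors Mtif2 and Mtif3 thus passed in opposite directions. Of 27 assembly genes 11 were higher, among them Rpusd3 (1.31), Mettl17 (0.84) and Rmnd1 (0.68), and the pseudouridine synthase gene Trub2 was lower (-0.53). Ybey (-0.48) and Mettl15 (-0.47), of small-subunit rRNA maturation, did not pass (edgeR adjusted p = 0.234 and 0.0503).

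Of 20 mitochondrial aminoacyl-tRNA synthetases and partners 7 were higher and 3 lower, that is 35.0% and 15.0%, the first near the share of all genes. Vars2 (1.20), Wars2 (0.75) and Sars2 (0.71) were higher in neonates, and Lars2 (-0.47) was lower. Mars2 was called lower (-1.38), at 0.873 and 0.418 CPM in neonates and 1.87 and 1.51 CPM in adults, but it reached 1 CPM only in adults and had a fractional count, so the filter favoured this call. Ears2 had an estimate of -0.84 and did not pass (edgeR adjusted p = 0.0807). Of the 16 genes among the 77 that copy, transcribe or process mtDNA and its RNA, 7 were higher (43.8%) and 2 lower (12.5%). Higher in neonates were the single-stranded DNA binding protein Ssbp1 (1.26, from fractional counts), the RNA stabiliser Slirp (0.96) and Mterf1 (0.77). So were the RNA polymerase Polrmt (0.55) and the packaging and transcription factor Tfam (0.33). Polg, the mtDNA polymerase (-0.60), and Prorp, the nuclease of the 5′ ends of mitochondrial tRNAs (-0.50), were lower in neonates. The helicase Twnk (-0.05) and Lrpprc, the partner of Slirp (0.11), did not pass.

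**Figure D4:**
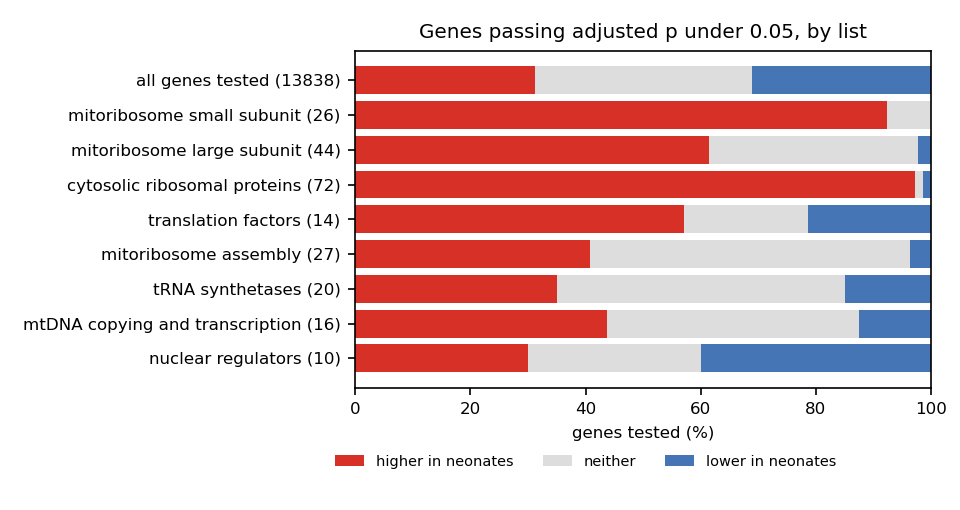
Bars show, for each list, the share of tested genes (x axis, %) that were higher in neonates (red), lower (blue) or neither (grey) at an adjusted p under 0.05, with the number tested in brackets. The small subunit (24 of 26) and the cytosolic ribosomal proteins (70 of 72) are almost wholly red, and the nuclear regulators have 3 higher and 4 lower of 10.

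Nuclear regulators known to act on such genes passed in both directions. Nrf1 was lower in neonates (log2 fold change -0.34, edgeR adjusted p = 0.0120), as were Gabpa (-0.43, edgeR adjusted p = 0.00155), the DNA-binding chain of the ETS factor GABP, and its partner Gabpb2 (-1.80). The other partner, Gabpb1 (0.17), and Yy1 (-0.31) did not pass (edgeR adjusted p = 0.150 and 0.0570). The coactivator Ppargc1a (PGC-1α) was called lower as well (-1.48, edgeR adjusted p = 0.0111), at 0.592 and 0.557 CPM in neonates and 1.40 and 1.81 CPM in adults. It reached 1 CPM only in adults, so the filter favoured this call. The related coactivator gene Pprc1 (0.32) and the growth regulators Myc (0.48) and Mycn (0.996) were higher. Ppargc1b did not pass the low-count filter. Of the list as a whole, 3 of 10 tested regulators were higher (30.0%) and 4 lower (40.0%), close to the 31.2% and 31.1% of all genes.

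Members were then compared by promoter letters. With the ETS letters 13 of 18 tested members were higher (median log2 fold change 0.45), and without them 29 of 39 (0.49). With the NRF1 letters 5 of 8 were higher (0.34), and without them 37 of 49 (0.49). With the YY1 letters 7 of 9 were higher (0.39), and without them 35 of 48 (0.51). No test of these differences was made, and few members held the NRF1 or YY1 letters.

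Some mitoribosomal genes start head to head with another gene, so that both share the stretch between them. Only genes with a promoter in GRCr8 could be searched for this. Of the 60 such members, 23 had a protein-coding gene on the other strand starting within 1000 bases. How often other genes start in this way was not computed. Outside the family 17 such neighbours were tested, of which 11 were higher in neonates (64.7%, against 31.2% of all genes), 2 lower and 4 neither, with a median log2 fold change of 0.46. The pairs named here were picked for their values. Mrpl32 and its neighbour Psma2, a proteasome subunit, were both higher in neonates (0.90 and 0.66). So was the pair of members Mrps11 and Mrpl46 (0.68 and 0.32). In contrast, the condensin gene Ncapd2, next to Mrpl51, was at 40.8 and 39.3 CPM in neonates and at 14.3 and 12.1 CPM in adults. It was higher in neonates by 1.60 ± 0.11 (SE, edgeR adjusted p = 8.98e-06), while Mrpl51 was lower. Opposite directions that both passed were also seen for Mrpl52 with the amino acid transporter Slc7a7 (0.43 and -0.38) and for Mrps18b with Ppp1r10 (0.35 and -0.34).

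For other pairs the neighbour had a far larger estimate than the member, with the same sign. The kinetochore gene Ska3 was higher in neonates by 2.36. Its partner Mrpl57 had an estimate of 0.21 that did not pass (edgeR adjusted p = 0.133). The nuclease subunit gene Eme1, at 4.25 and 5.21 CPM in neonates and 0.933 and 0.555 CPM in adults, had an estimate of 2.66. It reached 1 CPM only in neonates, so the filter favoured its call, which is among the 11 above. Its partner Mrpl27, at 59.9 and 58.7 CPM in neonates and 34.8 and 36.7 CPM in adults, was higher in neonates by 0.73. The starts of both these pairs overlap in GRCr8, as they do in 5 of the pairs tested. Whether the counting used strand is not given in the sources used here, so reads from overlapping ends cannot be told apart.

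**Figure D5:**
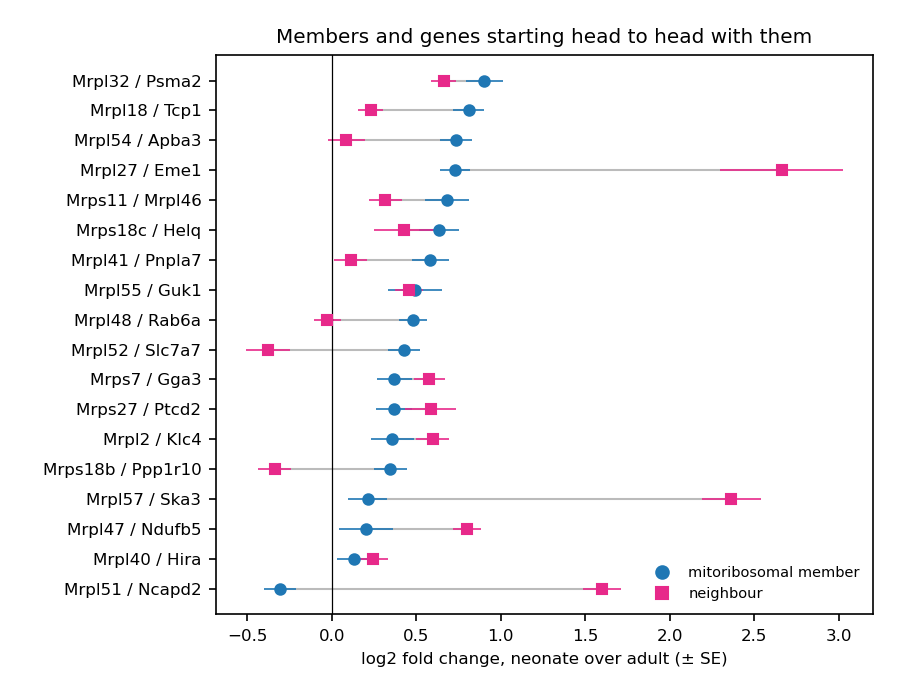
For each pair of head-to-head genes with both tested, circles show the mitoribosomal member and squares its neighbour, as log2 fold change (x axis, neonate over adult) with standard error. Most squares lie right of 0, and Ncapd2 at 1.60 stands opposite Mrpl51 at -0.31.

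RNA of some cell type markers also differed with age, and its part in these differences was not tested. The counts of markers below are to be read beside the 31.2% higher and 31.1% lower among all genes. Glomus cell markers were present in all libraries, with sums of 7777 and 6465 CPM in neonates and 9478 and 7618 CPM in adults. Of 14, 6 were higher (42.9%) and 5 lower (35.7%) in neonates, and Epas1 was the most abundant. All 8 proliferation markers were higher, with sums of 854 and 733 CPM against 250.2 and 245 CPM. Pcna was the most abundant of them. All 5 erythroid markers were higher too, with sums of 12949 and 7356 CPM against 2817 and 2459 CPM. Hba-a1 was the most abundant of these. Of the sympathetic neuron markers 4 of 5 were higher, with sums of 1894 and 1725 CPM against 1481 and 1284 CPM. Snap25, the most abundant, was the one that did not pass. Of the fibroblast markers 2 of the 3 tested, Dcn and Pdgfra, were lower and none was higher, with sums of 5697 and 6937 CPM against 7596 and 7910 CPM. Col1a1, the most abundant, did not pass. In the other lists, higher and lower genes numbered 2 and 2 of 6 tested for sustentacular and Schwann glia, 0 and 2 of 4 for endothelium and 1 and 1 of 4 for smooth muscle and pericytes. They numbered 1 and 2 of 5 for adipocytes, 1 and 3 of 5 for macrophages, 1 and 1 of 2 for lymphocytes and 0 and 0 of 3 for skeletal muscle. Fabp7 among the glial and Cd79a among the lymphocyte genes were called higher but passed the filter only through neonates.

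RNA of parathyroid markers was found in the neonatal libraries. Pth was at 1774 and 208 CPM there and at 0 in both adult libraries, and Gcm2 was at 22.2 and 3.04 CPM against 0. All 3 tested parathyroid markers were higher, with sums of 3523 and 1005 CPM against 786 and 661 CPM. Pth and Gcm2 passed the filter only through neonates. Chga, the most abundant on average, is also expressed by glomus cells. It was at 1726 and 794 CPM in neonates and 786 and 661 CPM in adults, and counts in both lists and both sums. Without neonate replicate 1, which leaves a library with Pth at 208 CPM, 45 members were higher and 1 lower, and the member median relative to all genes was 0.42 in place of 0.50. The part of parathyroid RNA in the differences was not tested.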

How the data were processed

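Poly A+ RNA of pooled CBs was sequenced, with 2 libraries per age. The authors trimmed the reads, mapped them to Rnor_6.0.102 with STAR and quantified them with Salmon (1.5.2 per the labels). Ensembl 84 is named as well for summing to genes. The deposited values are estimated counts per gene, not normalized or filtered. Of the genes in a library, 5.02% to 6.19% had fractional counts.

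Counts were rounded, and 642 genes annotated as non-coding were removed by symbol. Genes reaching 1 CPM in 2 or more libraries were tested in R 4.3.3 with edgeR 4.0.16 (TMM, quasi-likelihood, Benjamini-Hochberg over 13838 genes, neonate over adult, no covariates). CPM are TMM-scaled. SE was derived as the absolute log2 fold change divided by the square root of the quasi-likelihood F statistic. Alternatives used limma 3.58.1 and DESeq2 1.42.0, and the steps were tested on simulated data. Python 3.11.15 with pandas 2.3.3, numpy 2.4.6 and matplotlib 3.10.9 was used for summaries.

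Members and gene lists were chosen with earlier results of these data known. Named genes are the 10 members with the largest and 6 with the smallest log2 fold change, the Mrps18 paralogs, Mrpl10, Mrpl12, Mrpl58, Mrps12, Mrpl45, untested members, subunits with other names, the 3 largest and 3 smallest of each other list, chosen regulators and markers. Promoters and neighbours are from RefSeq, assembly GRCr8, which is not the build of the counts. Of the symbols 75 matched, and 60 members had a promoter. No set test was run.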

Additional observations from a re-analysis of the deposited data

How the results depend on the processing

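The 2 pools per age, of uncertain size, limit every call, and the smallest differences (about 0.1 on the log2 scale) were within the replicate gap. With library size alone the all-gene median moved from 0.00 to -0.25 on the log2 scale. Then 33 members were higher and 6 lower (Mrpl3, Mrpl15, Mrpl16, Mrpl17, Mrpl49 and Mrpl51), none by 2-fold, 17 other mitochondrial translation genes were higher and 14 lower, and over all genes 2587 were higher, 704 of them by 2-fold, and 5995 lower, 2547 by 2-fold. Members with an estimate above 0 then numbered 54, in place of 64. Of the genes recomputed singly, Mrps18a (-0.13), Mrpl10 (-0.15), Mrpl45 (-0.076) and Lrpprc (-0.13) changed sign. Their values relative to that shift were above 0. Members lower were 2 with limma-voom and 2 at a mean of at least 5 CPM, Mrpl51 and Mrpl49, and at that mean 654 genes were higher and 1169 lower by 2-fold. With DESeq2 no cytosolic gene was lower, since Rps6 missed (adjusted p = 0.169), and 49 members were higher.

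Leaving out each library in turn left 40 to 49 members higher and 0 to 1 lower. The median log2 fold change relative to all genes ran from 0.42 to 0.57 for members (0.50 with all libraries), from 0.37 to 0.50 for the large subunit and from 0.47 to 0.67 for the small subunit. Other translation genes lower numbered 5 to 10, the lowest without adult replicate 2. Members with an estimate above 0 numbered 63 to 66, against 64 with all libraries. Among the genes recomputed singly, estimates that changed sign ran from -0.089 to 0.035 for Mrpl17 and from -0.11 to 0.023 for Twnk. Both were above 0 without neonate replicate 2. Mrps10 ran from -0.23 to 0.067 (above 0 without neonate replicate 2 or adult replicate 1). For Mrpl10 the range was -0.015 to 0.20 (below 0 without adult replicate 2). The causes were not tested. Of the values recomputed for single genes, 845 kept direction and side of the threshold and 45 kept direction but no longer passed. Another 21 newly passed and 9 changed sign. Some named genes, such as Mrpl3, Mrpl57, Gabpb2 and Yy1, were not recomputed in this way.

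The replicate number was not used to pair the samples, and whether same-numbered libraries shared litters is not given in the sources used here. Deviations of same-numbered libraries correlated at -0.016 over all 13838 genes, and at 0.10 over the 71 members. Such a correlation cannot decide this, because it does not see a shift that the members share. In 52 of 70 mitoribosomal genes replicate 1 was above replicate 2 at each age. With the replicate number as a block 53 members were higher, 52 of them shared, and 1 was lower.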
